A study of Mus musculus with 6 samples.

Results

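Cyp2b9, Cyp2b10 and Cyp2b13 are 3 mouse genes of the cytochrome P450 2B subfamily, whose liver enzymes oxidise drugs and steroids. They were chosen by name as classical targets of the constitutive androstane receptor (CAR, encoded by Nr1i3), and they are 3 of the 9888 genes that had a probe with a single gene symbol on the arrays. Each gene was read by 1 probe with 1 spot per array. The probes of Cyp2b9 and Cyp2b13 were named through their transcript accession, and that of Cyp2b10 through the symbol in its description.

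RNA from liver or liver tumour was hybridised to 6 Agilent 2-colour oligonucleotide arrays, set up as 3 pairs of 2 arrays with the dyes Cy3 (green) and Cy5 (red) exchanged within a pair. All mice were on the C3H/HeNCrlBR background, were 39 weeks old, and had been given diethylnitrosamine (DEN), a carcinogen that starts liver tumours. Phenobarbital (PB), a tumour promoter, was then supplied in the drinking water of all but 1 group. The RNAs were PB-treated WT tumour, PB-treated liver of CAR-knockout (CAR-KO) mice, PB-treated WT liver, and CAR-KO liver with DEN only. PB-treated CAR-KO liver was on all 6 arrays. It lay opposite WT liver in 1 pair (the WT liver pair), opposite DEN-only CAR-KO liver in another (the PB pair), and opposite WT tumour in the last (the tumour pair). WT mice on DEN alone were not analysed here, so the effect of PB in WT liver was not measured. The sex of the mice, the number of animals behind each RNA and whether animals were pooled are not given in the sources used here.

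CAR is a nuclear receptor that is held in the cytoplasm of hepatocytes until PB or a related compound releases it to the nucleus, where it binds DNA with the retinoid X receptor. Cyp2b10 is the gene by which PB induction through CAR is usually followed in mouse liver, and its PB-responsive enhancer lies further upstream than the sequences printed here. Cyp2b9 and Cyp2b13 are known in mice for higher expression in female than in male liver.

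The 3 genes lie in the Cyp2 cluster on mouse chromosome 7, with Cyp2b13 between Cyp2b9 and Cyp2b10 and pseudogenes of the subfamily in between. The 250 bases before each annotated start are shown so that the genes can be compared by sequence as well as by signal. They come from RefSeq (assembly GRCm38.p6, the + strand), not from the strain studied. Capitals mark AGGTCA, the half-site that many nuclear receptors bind, and the A-rich stretch near the start, CATCAAAAG or CATAAAAG. The windows are chr7:26173159-26173408 for Cyp2b9, chr7:26061245-26061494 for Cyp2b13 and chr7:25897408-25897657 for Cyp2b10.
Cyp2b9: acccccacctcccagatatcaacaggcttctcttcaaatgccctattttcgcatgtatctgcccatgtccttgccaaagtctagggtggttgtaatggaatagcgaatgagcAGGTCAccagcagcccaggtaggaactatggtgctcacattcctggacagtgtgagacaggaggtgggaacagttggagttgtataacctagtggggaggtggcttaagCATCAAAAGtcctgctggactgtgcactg
Cyp2b13: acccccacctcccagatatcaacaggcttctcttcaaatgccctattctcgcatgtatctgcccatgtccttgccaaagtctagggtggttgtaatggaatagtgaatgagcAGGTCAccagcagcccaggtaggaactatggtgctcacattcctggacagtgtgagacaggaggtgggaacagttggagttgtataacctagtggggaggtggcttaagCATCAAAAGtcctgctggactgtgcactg
Cyp2b10: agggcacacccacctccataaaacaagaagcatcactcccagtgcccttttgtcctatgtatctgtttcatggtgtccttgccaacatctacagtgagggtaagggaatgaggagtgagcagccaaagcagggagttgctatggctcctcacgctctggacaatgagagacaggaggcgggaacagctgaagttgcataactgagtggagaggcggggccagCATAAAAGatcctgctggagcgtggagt

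The Cyp2b9 and Cyp2b13 windows were identical at 248 of 250 bases (99.2%). With positions counted from 1 at the 5′ end of the window and the Cyp2b9 base first, the differences were T48C and C104T. Cyp2b10 matched each of them at 182 of 240 aligned bases (75.83%). AGGTCA, searched on both strands, occurred once in the Cyp2b9 and Cyp2b13 windows, beginning 138 bases before the start, and 0 times in the Cyp2b10 window. It is a short motif, present in 14.02% of the 32851 windows of the same length in the table. CATCAAAAG began 29 bases before the start of Cyp2b9 and of Cyp2b13 (0.207% of windows hold it), and CATAAAAG began 28 bases before that of Cyp2b10 (0.8889% of windows). Both were picked by looking at these sequences. The GC-rich hexamer GGCGGG occurred 2 times in the Cyp2b10 window and 0 times in the other windows (32.49% of all windows), whereas GGTGGG occurred 2 times in the Cyp2b9 and Cyp2b13 windows and 1 time in that of Cyp2b10 (28.64%). TATAAA (12.37% of windows) and CCAAT (33.85%) were in none of the 3 windows, and no match overlapped another. These matches describe the letters only.

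The median Cy3 signal of an array was 186.5 to 493.5 and the median Cy5 signal 129.4 to 417.9. Array 2 of the tumour pair was processed with another version of the Agilent software (7.5.1 against 7.1.1). It had median backgrounds of 288 in Cy3 and 299 in Cy5, against 53 to 62 on the other 5 arrays. Across all probes, the ratios of the arrays of a pair, turned to one direction, correlated with r = 0.03 in the WT liver pair, r = -0.35 in the PB pair and r = 0.39 in the tumour pair, so the arrays of the PB pair tended to run against each other. Nr1i3, the deleted gene, had a log2 ratio of CAR-KO over WT liver of -1.08 and -0.49 on the 2 arrays (limma adjusted p = 0.412), and of WT tumour over CAR-KO of 1.71 and 1.90 (adjusted p = 0.00194). Where its probe lies relative to the deleted part is not given in the sources used here, so these values do not check the genotype. Of 6 measured hepatocyte markers (among them Ttr, Apoa2 and Hnf4a), 0 were called in any comparison. At most 2.53% of all probes were called in 1 direction of a comparison, so 0 of 6 says little about the markers. All 6 had a positive ratio in CAR-KO over WT liver (median 0.09) and a negative ratio in the tumour pair (median -0.24).

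Levels of the 3 genes are given as log2 normalised signal, after loess within arrays and quantile scaling of the average signal between arrays; they compare RNAs for 1 probe and not one gene with another. The signals of all 3 probes were well above background and unsaturated in all 12 channels. For Cyp2b9 the level was 12.34 and 13.14 in WT tumour, 6.71 to 8.55 in 6 channels of PB-treated CAR-KO liver (median 7.53), 12.16 and 12.43 in WT liver, and 6.58 and 6.60 in DEN-only CAR-KO liver. Every channel of a WT RNA was thus above every channel of a CAR-KO RNA. The level of Cyp2b13 was 11.89 and 12.06 in WT tumour, 6.79 to 7.62 in PB-treated CAR-KO liver (median 7.14), 10.74 and 11.09 in WT liver, and 6.75 in both channels of DEN-only CAR-KO liver. Here too no WT channel overlapped a CAR-KO channel. Cyp2b10 had levels of 10.53 and 11.38 in WT tumour, 7.95 to 8.73 in PB-treated CAR-KO liver (median 8.41), 10.25 and 10.36 in WT liver, and 7.90 and 8.05 in DEN-only CAR-KO liver. The gap between WT and CAR-KO RNAs was narrower for Cyp2b10, but again no channel overlapped. How many of all probes separate in this way was not counted, so the separation only describes the 3 genes. Both WT tumour channels lay above both WT liver channels for Cyp2b10 and Cyp2b13, and those of Cyp2b9 overlapped. These RNAs were read on separate pairs, and PB-treated CAR-KO liver itself read higher on the tumour pair than on the WT liver pair. Its mean levels were 8.65 against 8.41 for Cyp2b10, 7.41 against 7.30 for Cyp2b13 and 8.51 against 7.53 for Cyp2b9. The order of the channels was therefore not read as a difference between WT tumour and WT liver.

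**Figure D1:**
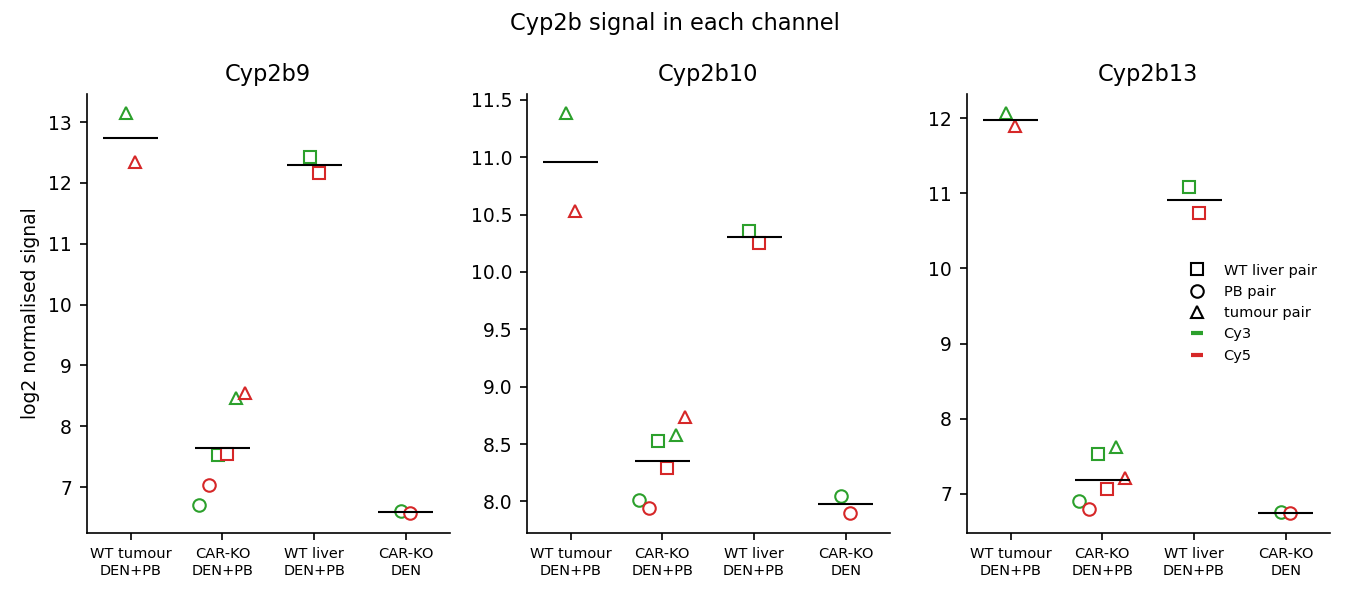
Log2 normalised signal (vertical axis, a separate scale per gene) of Cyp2b9, Cyp2b10 and Cyp2b13 in each channel, by RNA (horizontal axis); colour gives the dye, symbol the array pair, and the line the mean. WT tumour and WT liver sit above both CAR-KO RNAs for each gene, and the 6 channels of PB-treated CAR-KO liver spread from 6.71 to 8.55 for Cyp2b9.

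In percentiles of all probes of a channel, Cyp2b9 stood between 99.0 and 99.5 in WT tumour, between 32.5 and 81.2 in PB-treated CAR-KO liver, between 98.9 and 99.0 in WT liver, and between 27.4 and 28.5 in DEN-only CAR-KO liver. In net signal, the scanner's mean less the local background, this was 7160 and 27834 units in WT tumour, 95.4 to 662 in PB-treated CAR-KO liver, 3279 and 5263 in WT liver, and 30.7 and 101 in DEN-only CAR-KO liver. The brightest of these, 27834 units, came from array 2 of the tumour pair, which had the highest median signals.

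The first comparison asks which genes depend on CAR in the liver of mice given DEN and PB. All 3 Cyp2b genes were lower in CAR-KO than in WT liver, Cyp2b9 by 27.1-fold, Cyp2b13 by 12.3-fold and Cyp2b10 by 3.72-fold. Among 20743 probes tested, 19 were called lower (0.0916%) and 2 higher (0.00964%) at a Benjamini-Hochberg adjusted p under 0.05, and Cyp2b9 had the lowest ratio, Cyp2b13 the second lowest and Cyp2b10 the 15th.

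Cyp2b9 had log2 ratios of CAR-KO over WT liver of -4.89 and -4.64 on the 2 dye-swapped arrays. Both arrays showed it far lower in CAR-KO liver, and the fitted ratio was -4.76 ± 0.20 (SE, 2 arrays; 95% interval -5.23 to -4.29; limma adjusted p = 0.000382). Cyp2b13 had ratios of -4.02 and -3.21, which is the widest gap between the arrays among the 3 genes in this pair. Its fitted ratio was -3.61 ± 0.18 (95% interval -4.02 to -3.21; limma adjusted p = 0.000382). Cyp2b10 had ratios of -2.07 and -1.72. It was lower in CAR-KO liver on both arrays, with a fitted ratio of -1.89 ± 0.16 (95% interval -2.27 to -1.51; limma adjusted p = 0.00746). The SE comes from a fit over all 6 arrays with a dye effect per probe. Whether the arrays of a pair held separate RNA extracts is not given in the sources used here, so p-values here cover the spread of arrays with exchanged dyes, which may be technical. In RNA of whole tissue, fewer cells that express a gene and less RNA per cell cannot be told apart.

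Leaving out any single array kept the calls of Cyp2b9 and Cyp2b13. That of Cyp2b10 was lost without array 1 of the pair (-1.95, limma adjusted p = 0.381), without array 2 (-1.84, adjusted p = 0.559) and without 1 or the other array of the PB comparison (-1.89, adjusted p = 0.0938), while its ratio hardly moved. Over all probes, the 19 called lower numbered 5 and 4 with array 1 and array 2 of the pair removed, 8 with an array of the PB pair removed and 76 with an array of the tumour pair removed. With the processed signals of the Agilent software 0 probes passed in limma (1126 at an unadjusted p under 0.05), and the adjusted p was 0.185 for Cyp2b9 and Cyp2b13 and 0.356 for Cyp2b10. Among markers of other cell types, 1 of 6 measured skeletal muscle genes was called higher in CAR-KO liver (Tnnc2, 1.78 ± 0.15, limma adjusted p = 0.00746). The summed signal of the 6 was 967.5 to 1484 in PB-treated CAR-KO liver and 645.9 to 656.1 in WT liver. In DEN-only CAR-KO liver it was 657.5 to 668.9, so the higher sum was not shared by both CAR-KO RNAs. In the PB comparison all 6 had a positive ratio (median 0.64), with 0 called. The part of these muscle genes in the Cyp2b ratios was not tested.

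**Figure D2:**
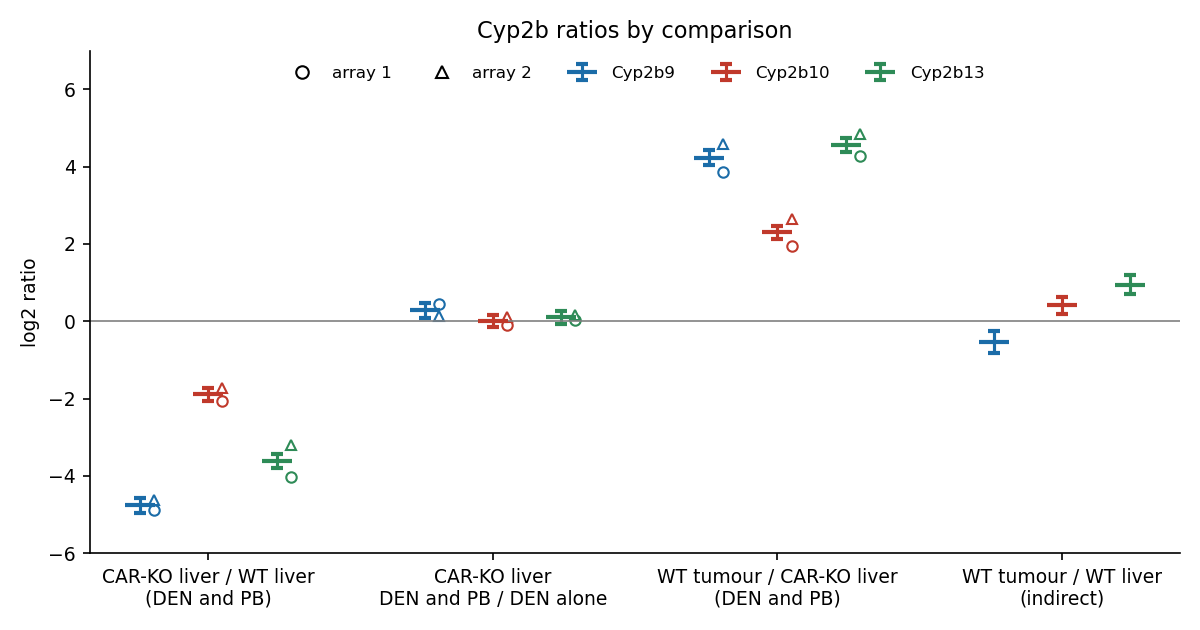
Log2 ratio (vertical axis) of Cyp2b9, Cyp2b10 and Cyp2b13 in each comparison (horizontal axis), the RNA named first over the other; horizontal marks are fitted ratios, bars are ± SE, and open symbols are the 2 dye-swapped arrays. CAR-KO over WT liver lies between -4.89 and -1.72 on single arrays and WT tumour over CAR-KO liver between 1.96 and 4.85, while the PB comparison lies near 0; the indirect comparison has no arrays of its own.

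The second comparison asks what PB did in the absence of CAR. None of the 3 genes was called in PB-treated over DEN-only CAR-KO liver, where 0 of 20742 probes were called in limma (0% in either direction; 565 at an unadjusted p under 0.05, against 1037 that chance gives). Cyp2b10 had log2 ratios of -0.10 and 0.11 on the 2 arrays. The arrays fell on opposite sides of 0, with a fitted ratio of 0.01 ± 0.16 (95% interval -0.37 to 0.39; limma adjusted p = 1.0). Cyp2b9 had ratios of 0.44 and 0.13 and a fitted ratio of 0.28 ± 0.20 (95% interval -0.18 to 0.75; limma adjusted p = 1.0). Cyp2b13 had ratios of 0.04 and 0.16 and a fitted ratio of 0.10 ± 0.18 (95% interval -0.31 to 0.51; limma adjusted p = 1.0). Cyp2b9 and Cyp2b13 were thus slightly positive on both arrays, and the intervals of all 3 genes included 0. Their net signals on these arrays were low, at 30.7 to 124 units for Cyp2b9 and Cyp2b13. The offset of 50 added to the intensities draws ratios of such dim spots toward 0. With the Agilent processed signals, which carry no such offset, Cyp2b9 had 0.65 and Cyp2b13 0.24, and neither was called. Without array 1 of the PB pair, the fitted ratios of Cyp2b9, Cyp2b10 and Cyp2b13 were -0.11, -0.15 and -0.19. Array 2, the array left, itself read 0.13, 0.11 and 0.16. In that fit the dye effect came from the arrays of the other pairs, so the negative sign is not a reading of array 2.

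The tumour pair set PB-treated WT tumour against PB-treated CAR-KO liver. All 3 genes were higher in WT tumour, Cyp2b13 by 23.7-fold, Cyp2b9 by 18.8-fold and Cyp2b10 by 4.93-fold. Of 20744 probes tested, 524 were called higher (2.53%) and 174 lower (0.839%). Cyp2b13 had the second highest ratio of all, Cyp2b9 came next and Cyp2b10 was the 34th. Tumour and genotype differ together in this pair and cannot be told apart from it alone.

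Cyp2b13 had log2 ratios of WT tumour over CAR-KO liver of 4.28 and 4.85 on the 2 arrays. The fitted ratio was 4.56 ± 0.18 (SE, 2 arrays; 95% interval 4.15 to 4.97; limma adjusted p = 9.1e-05). Cyp2b9 had ratios of 3.87 and 4.59, with a fitted ratio of 4.23 ± 0.20 (95% interval 3.77 to 4.70; limma adjusted p = 0.000212). Array 2, the one with the higher backgrounds, gave the higher ratio for each gene. Cyp2b10 had ratios of 1.96 and 2.65, with a fitted ratio of 2.30 ± 0.16 (95% interval 1.92 to 2.68; limma adjusted p = 0.000953).

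Without array 2 of the tumour pair the ratios of Cyp2b9, Cyp2b10 and Cyp2b13 were 3.86, 2.10 and 4.51, and their calls held, as they did without any other single array. The number of probes called in all was less stable, at 698 with all arrays and 4708 without that array. With the Agilent processed signals 0 probes passed in limma (2846 at an unadjusted p under 0.05), with an adjusted p of 0.101 for Cyp2b9, 0.115 for Cyp2b10 and 0.0803 for Cyp2b13. The summed signal of 3 measured erythroid markers was 4851 to 5419 in WT tumour and 9197 to 11240 in PB-treated CAR-KO liver, and 1 of them was called lower. For 6 skeletal muscle markers the sums were 574.7 to 622.5 in WT tumour and 967.5 to 1484 in CAR-KO liver, with 3 called lower. For 6 hepatocyte markers they were 70760 to 71840 in WT tumour and 70290 to 95880 in CAR-KO liver, with 0 called. Of 3 stellate cell markers 1 was called lower in WT tumour, with sums of 570.0 to 589.5 there and 847.4 to 1284 in CAR-KO liver, and of 5 cholangiocyte markers 1 was called higher, with sums of 858.4 to 908.5 in WT tumour and 805.9 to 968.4 in CAR-KO liver. Of all probes tested, 0.839% were called lower and 2.53% higher in this pair. The part of these cell types in the Cyp2b ratios was not tested.

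No array carried WT tumour and WT liver together, so these were compared through CAR-KO liver, by adding the ratios of the WT liver pair and the tumour pair. None of the 3 genes was called, in a comparison where 0 of 20743 probes were called in limma (0% in either direction; 1737 at an unadjusted p under 0.05). Cyp2b13 was 1.93-fold higher in WT tumour, with a log2 ratio of 0.95 ± 0.25 (SE; 95% interval 0.37 to 1.53) and an unadjusted p of 0.00574 in limma, but an adjusted p of 0.405. Cyp2b10 had a log2 ratio of 0.41 ± 0.23 (95% interval -0.13 to 0.95; limma adjusted p = 0.618). For Cyp2b9 it was -0.53 ± 0.28 (95% interval -1.19 to 0.13; limma adjusted p = 0.613). The point estimates of the genes therefore lay on both sides of 0, and they moved with the normalisation. When arrays were centred on the median in place of loess, the ratio was 0.17 for Cyp2b9 (limma adjusted p = 0.689), 1.01 for Cyp2b10 (adjusted p = 0.0899) and 1.55 for Cyp2b13 (adjusted p = 0.0511). The sum uses PB-treated CAR-KO liver as a shared reference, whose mean Cyp2b9 level was 8.51 on the tumour pair and 7.53 on the WT liver pair. How this bears on the sum was not tested. For Cyp2b9, unlike Cyp2b10 and Cyp2b13, the channel means lay in the other order, 12.74 in WT tumour and 12.29 in WT liver. The sign of its indirect ratio was therefore not settled. Up to 2164 probes were called when an array of the tumour pair was left out, but none of the 3 genes was among them.

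PB-treated CAR-KO liver was read in 6 channels, and the Cyp2b levels in it differed between the array pairs. For Cyp2b9 the mean log2 level of the 2 channels was 8.51 on the tumour pair, 7.53 on the WT liver pair and 6.87 on the PB pair, where the other RNA was CAR-KO as well. The tumour pair exceeded the PB pair by 1.63, at percentile 100 of 20572 probes (median of all probes -0.02), and the WT liver pair by 0.66, at percentile 99.4. Array 2 of the tumour pair, which had higher backgrounds, was left out of the raw readings. On the other arrays, the net signal of Cyp2b9 in this RNA before normalisation was 256 on array 1 of the tumour pair. It was 152 and 173 on the WT liver pair, and 95.4 and 111 on the PB pair. For Cyp2b9 the order was thus the same in the raw readings. It was not for the other genes, since Cyp2b10 had 286 on array 1 of the tumour pair against 286 and 314.5 on the WT liver pair, and Cyp2b13 had 152 against 96.4 and 180. For Cyp2b10 the mean levels were 8.65, 8.41 and 7.98 on the tumour, WT liver and PB pairs, and both excesses over the PB pair (0.67 and 0.43) stood at percentile 95.8. For Cyp2b13 the mean levels were 7.41, 7.30 and 6.85, with excesses of 0.57 (percentile 93.3) and 0.45 (percentile 96.5). After normalisation, the mean CAR-KO level of each of the 3 genes was thus highest on the tumour pair. Cyp2c55, another gene called in both comparisons, differed by -0.03 and -0.06 between the same arrays, whereas Ly6d differed by 1.02 and 0.53. The other genes named below as nearest in pattern differed by -0.27 (Sult1e1) to 0.38 (Tuba8) between the tumour pair and the PB pair. Cyp2b19, of the same subfamily, differed by -1.05 on the tumour pair (percentile 0.0972) and by -0.07 on the WT liver pair. The cause was not tested. Differences between CAR-KO channels of separate array pairs were therefore not read as differences between mice.

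The software's own ratios give the same order of the genes. In the authors' deposited table, turned to CAR-KO over WT liver and expressed as log2, Cyp2b9 had -5.39 and -5.31, Cyp2b13 -4.77 and -3.80, and Cyp2b10 -2.34 and -1.92 on the 2 arrays. In the authors' deposited table the ratios of WT tumour over CAR-KO liver were 4.76 and 5.14 for Cyp2b13, 4.09 and 4.68 for Cyp2b9, and 2.12 and 2.71 for Cyp2b10. For the PB pair the authors' deposited table had 1.03 (p = 8.3e-06 from the software's model of 1 spot) on array 1 and 0.27 (p = 0.214) on array 2 for Cyp2b9, the only 1 of these 6 values of the 3 genes with such a p under 0.05.

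The gap between Cyp2b9 and Cyp2b10 was read array by array. In CAR-KO over WT liver, the log2 ratio of Cyp2b9 minus that of Cyp2b10 was -2.82 on array 1 and -2.92 on array 2. On the tumour arrays that difference was 1.92 and 1.95. Cyp2b9 therefore moved further than Cyp2b10 on all 4 of these arrays. In the PB pair the difference was 0.54 and 0.01, so the arrays there did not give the same gap. Between Cyp2b9 and Cyp2b13 the difference was -0.86 and -1.43 in CAR-KO over WT liver, and -0.40 and -0.26 in the tumour pair. Cyp2b9 thus moved further than Cyp2b13 in the WT liver pair. In the tumour pair it moved less far, but that order depended on the processing, since the fitted ratios of Cyp2b9 and Cyp2b13 were 3.89 and 3.85 with no background subtraction and 4.61 and 4.62 without array 1 of the pair. Probe sequences were not used here, and whether a probe also reads transcripts of the other, closely similar genes was not tested.

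Over the 6 ratios, the Euclidean distance was 1.78 between Cyp2b9 and Cyp2b13, 4.92 between Cyp2b9 and Cyp2b10, and 4.04 between Cyp2b10 and Cyp2b13. Among 9895 probes with a single symbol outside the 3 genes, Ly6d, a cell surface protein gene, came nearest to both Cyp2b13 (0.792) and Cyp2b9 (2.03). Its log2 ratio was -3.58 in CAR-KO over WT liver and 4.82 in the tumour pair. The next nearest to Cyp2b13 were Pnliprp1 (1.96), which encodes a lipase-related protein of the pancreas, Cyp2c55 (2.03), Gstm2 (2.58), a glutathione S-transferase, and Cyp2c37 (2.80). The same 4 genes followed Ly6d for Cyp2b9, at 3.15 to 3.76. For Cyp2b10 the nearest were Cyp2c29 (0.885), Sult1e1 (1.12), the oestrogen sulfotransferase, Tuba8 (1.17), an alpha-tubulin, Por (1.19) and Lect2 (1.31). None of these was among the 5 nearest to Cyp2b9 or Cyp2b13. Distances reflect the size of the ratios as well as their direction.

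Genes around the Cyp2b genes were measured on the same arrays. Of 12 other genes listed for the Cyp2 cluster, 7 were measured, and 0 of them were called in CAR-KO over WT liver (median log2 ratio -0.05, against 0.02 over all probes). Only 0.0916% of all probes were called lower and 0.00964% higher there, so 0 of 7 says little about these genes. Cyp2a4, a steroid hydroxylase and the nearest measured Cyp2 gene on the Cyp2b9 side, had ratios of -1.74 and -2.02 on the 2 arrays and a fitted ratio of -1.88 ± 0.32 (limma adjusted p = 0.184). In the tumour pair it was called higher, at 2.66 ± 0.32 (3.81 and 1.51 on the 2 arrays, limma adjusted p = 0.00577). Of the 7 genes, 1 was called higher in that pair and 1 lower, against 2.53% and 0.839% of all probes. Cyp2f2, a P450 of lung and periportal liver further along the cluster, was called lower in WT tumour (-2.05 ± 0.17, limma adjusted p = 0.00163) and had a ratio of 0.15 ± 0.17 in CAR-KO over WT liver. Cyp2b19, a subfamily member known from skin keratinocytes, had fitted ratios of -0.00 ± 0.15 in CAR-KO over WT liver and -0.01 ± 0.15 in the tumour pair, where its arrays gave 0.29 and -0.32. Cyp2s1, the nearest measured gene on the other side of Cyp2b10, had -0.04 ± 0.18 in CAR-KO over WT liver and 0.12 ± 0.18 in the tumour pair. Among the measured genes of the stretch, large ratios stood at Cyp2a4 and the 3 Cyp2b genes, and at Cyp2f2 in the tumour comparison.

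**Figure D3:**
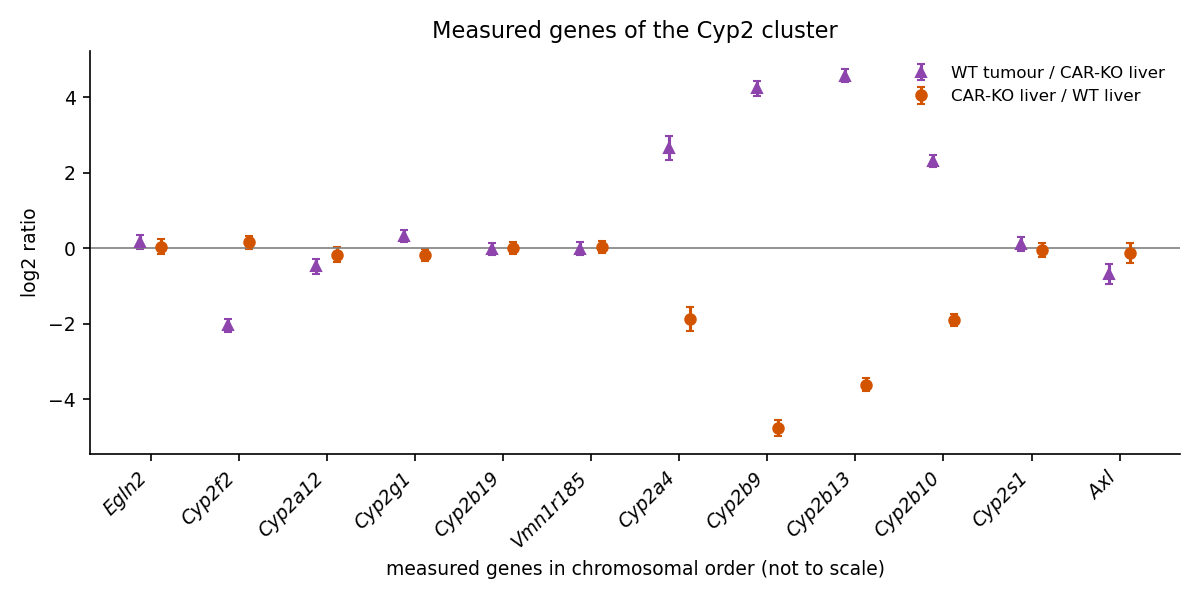
Log2 ratio ± SE (vertical axis) of the measured genes between Egln2 and Axl in their chromosomal order (horizontal axis, not to scale), for WT tumour over CAR-KO liver (triangles) and CAR-KO over WT liver (circles). Cyp2a4, Cyp2b9, Cyp2b13 and Cyp2b10 form a run of large ratios, though Cyp2a4 was not called in CAR-KO over WT liver (limma adjusted p = 0.184). CAR-KO liver is the first RNA of 1 ratio and the second of the other, so opposite signs do not mark these genes out. Cyp2f2 has -2.05 with WT tumour and 0.15 in CAR-KO over WT liver.

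The 3 genes were set beside 28 measured genes of 44 listed as responsive to PB or CAR in liver. In CAR-KO over WT liver, the 28 had a median log2 ratio of -0.67 (0.02 over all probes). Of the 28, 0 were called higher (0.00964% of all probes were) and 7 lower (0.0916% of all probes were). They were Cyp2c37 (-3.18 ± 0.15), Cyp2c39 (-2.75 ± 0.19) and Cyp2c55 (-2.67 ± 0.15), which are P450s of drug and fatty acid oxidation, Gstm2 (-2.34 ± 0.19), Cyp2c29 (-2.29 ± 0.16), Sult1e1 (-1.77 ± 0.18) and Por (-1.66 ± 0.17). Cyp2b9 and Cyp2b13 had lower ratios than any of the 28, and Cyp2b10 ranged among the called ones. In the PB comparison 0 of the 28 were called (median 0.24; -0.01 over all probes), and 20 had a positive ratio. The highest, Cyp3a11, a P450 that is also induced through the pregnane X receptor, had 0.73 and 2.11 on the 2 arrays and 1.42 ± 0.21 in the fit (limma adjusted p = 1.0).

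Among the tumour pair results, the 28 genes had a median of 1.32 (-0.01 over all probes). Of the 28, 0 were called lower (0.839% of all probes were) and 17 higher (2.53% of all probes were). They included Cyp2c55 (3.58 ± 0.15), Gstm2 (3.40 ± 0.19), Cyp2c37 (2.70 ± 0.15) and Cyp2c39 (2.60 ± 0.19). Cyp2b9 and Cyp2b13 exceeded every one of the 28 in this comparison. In WT tumour over WT liver 0 of the 28 were called (median 0.33; -0.01 over all probes), and Akr1b7, an aldo-keto reductase, had the highest ratio, 1.56 ± 0.22 (limma adjusted p = 0.141). The comparisons share PB-treated CAR-KO liver, so their values are not independent of each other.

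**Figure D4:**
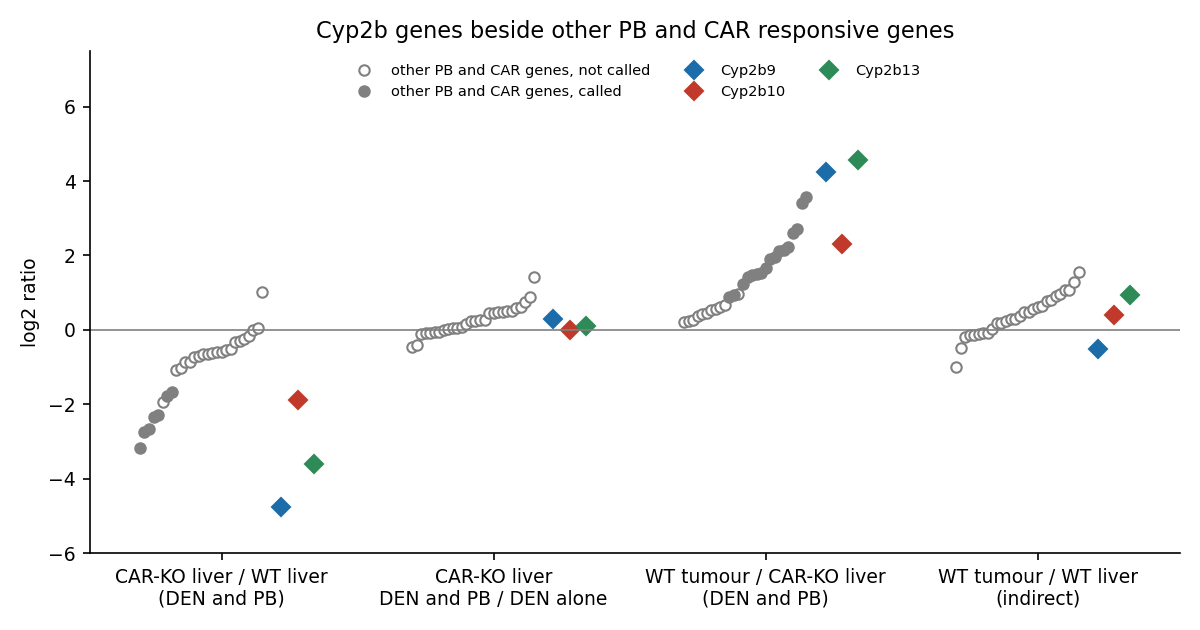
Log2 ratios (vertical axis) of 28 other genes responsive to PB or CAR (circles, filled where called at an adjusted p under 0.05) and of Cyp2b9, Cyp2b10 and Cyp2b13 (diamonds) in the 4 comparisons (horizontal axis); circles within a comparison are sorted by ratio. Cyp2b9 and Cyp2b13 lie beyond all 28 in CAR-KO over WT liver and in the tumour pair, and 0 circles are filled in the other comparisons.

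Of 26 measured genes of CAR signalling (30 listed: the receptor, its partners, coactivators, chaperones and kinases), 0 were called in CAR-KO over WT liver (median -0.00) and 0 in the PB comparison (median 0.09). In the tumour pair, Nr1i3 (1.81 ± 0.16) and Hsp90aa1 (1.22 ± 0.20), a chaperone gene, were called higher, and Egfr (-0.90 ± 0.16), the receptor whose signalling keeps CAR in the cytoplasm, was called lower (median of the 26 0.08). Over all probes tested, 2.53% were called higher and 0.839% lower in the tumour pair, and 0.0916% lower in CAR-KO over WT liver. Of 12 measured genes for electron transfer to P450s and for heme (19 listed), Por, the gene of the P450 electron donor in the endoplasmic reticulum, was the 1 called lower in CAR-KO liver. In the tumour pair, Por (1.90 ± 0.17) and Cyb5b (1.0 ± 0.15), a cytochrome b5, were called higher. The heme synthesis genes Alad, Urod, Uros, Cpox, Ppox and Fech had ratios of -0.20 to 0.33 in CAR-KO over WT liver and of -0.07 to 0.59 in the tumour pair, and none was called.

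Since Cyp2b9 and Cyp2b13 are sex-biased in mouse liver, other sex-biased genes were read beside them. Of 12 measured female-biased genes (17 listed), 0 were called in CAR-KO over WT liver (median -0.02), and Cyp2a4 was the 1 called higher in the tumour pair (median of the 12 -0.11). Of all probes tested, 2.53% were called higher in that pair. Of 11 measured male-biased genes (18 listed), 0 were called in CAR-KO over WT liver (median 0.08). In CAR-KO over WT liver 0.0916% of all probes were called lower and 0.00964% higher, so 0 called says little about either list. In the tumour pair 5 of the 11 male-biased genes were called lower, where 0.839% of all probes were (median of the 11 -0.78). Hsd3b5 (-1.92 ± 0.17) and Cyp7b1 (-1.60 ± 0.18), both steroid-metabolising enzymes, were in front, with Nudt7 (-1.15 ± 0.18) and Elovl3 (-1.12 ± 0.15) among the rest. Other than Cyp2a4, the highest ratio of a female-biased gene was 1.04 in that comparison, against 4.56 for Cyp2b13 and 4.23 for Cyp2b9.

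The direction of the 3 genes in both large comparisons was the same under 15 processing alternatives. In CAR-KO over WT liver the ratio of Cyp2b9 ranged from -5.35 to -4.36, that of Cyp2b13 from -4.28 to -3.20 and that of Cyp2b10 from -2.13 to -1.71. In the tumour pair the ranges were 3.86 to 4.83 for Cyp2b9, 3.85 to 5.10 for Cyp2b13 and 2.06 to 2.82 for Cyp2b10. Of the 14 alternatives with a test, the threshold was passed in 13 for each of the 3 genes in the tumour pair. In CAR-KO over WT liver it was passed in 13 for Cyp2b9 and Cyp2b13 and in 9 for Cyp2b10.

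**Figure D5:**
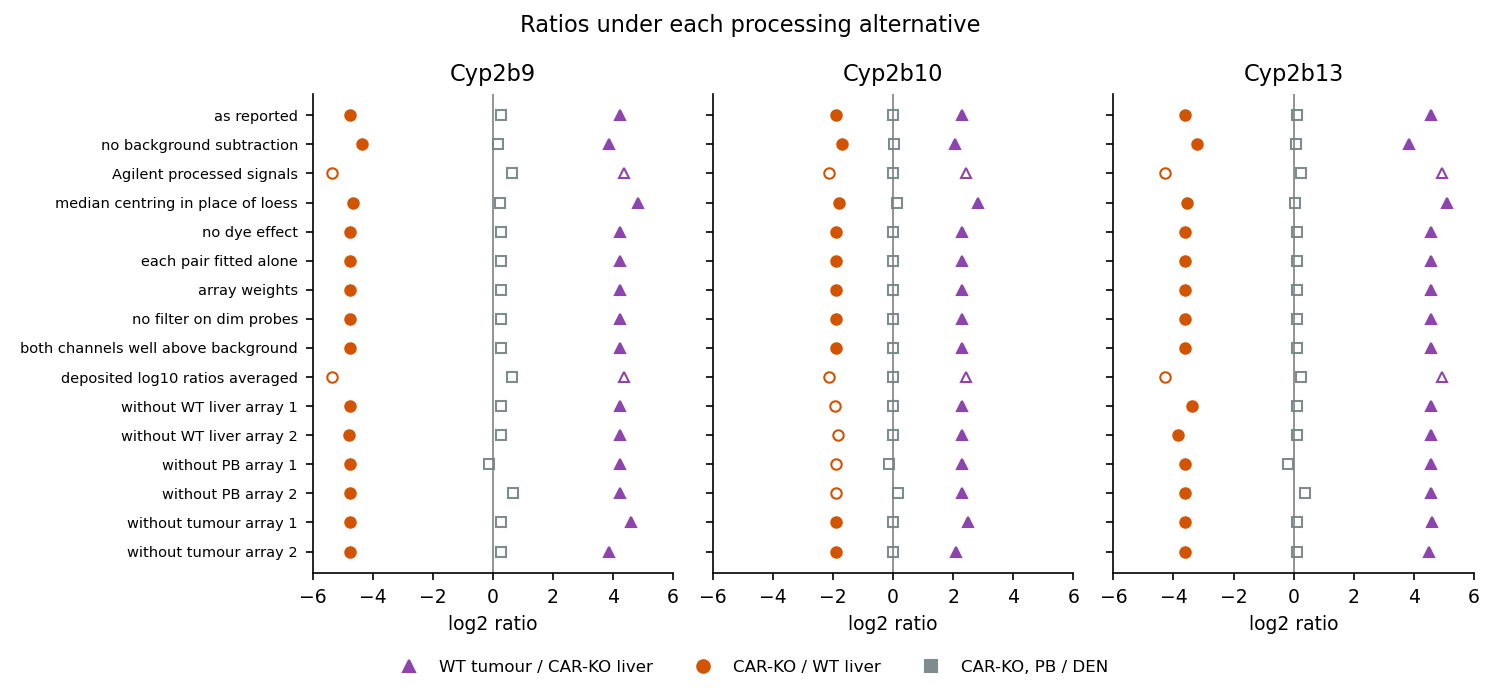
Log2 ratios (horizontal axis) of Cyp2b9, Cyp2b10 and Cyp2b13 as reported and under 15 alternatives (vertical axis) for WT tumour over CAR-KO liver (triangles), CAR-KO over WT liver (circles) and PB-treated over DEN-only CAR-KO liver (squares); filled symbols have an adjusted p under 0.05, and the averaged deposited ratios have no test. The order of the 3 comparisons is kept throughout, while calls are lost (open symbols) for all 3 genes on Agilent processed signals and for Cyp2b10 in CAR-KO over WT liver without either array of that pair or of the PB pair.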

How the data were processed

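Each scanner file deposited by the authors holds mean and background intensity per spot, processed intensity (background-subtracted and dye-normalised by Agilent Feature Extraction), a log10 ratio of red over green, and a p-value from the software's error model, per the file headers. The deposited value table repeats that log10 ratio (largest difference 0). Feature Extraction 7.1.1 was used for 5 arrays and 7.5.1 for array 2 of the tumour pair, per the file headers; the submitters' processing notes name 7.5. A genome build is not given in the sources used here.

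Of 22393 spots, 1075 were controls and were left out. Intensities were corrected with normexp (offset 50), normalised by loess within arrays and averaged by probe (20868 probes). Log2 ratios, turned by the dyes in the labels to give the first-named RNA over the second, were fitted with limma 3.58.1 (R 4.3.3; lmFit, eBayes) on all 6 arrays with a dye effect (2 residual and 5.48 prior degrees of freedom). Probes with a channel well above background on at least 2 arrays were tested, 2-sided, with Benjamini-Hochberg adjustment over all of them at 0.05. The indirect comparison is the sum of 2 contrasts. On simulated data for CAR-KO over WT liver (20744 probes), 50 of 50 probes changed by a log2 of 1 were recovered, with 17 false calls over all sizes. The changes were planted in normally distributed noise, so this does not give the share of such changes called in the measured data. There, Cyp2a4 at -1.88 (limma adjusted p = 0.184) and Tuba8 at -1.40 (adjusted p = 0.104) were not called. The number of arrays limits the precision.

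RefSeq symbols were given to 10043 probes (8947 by accession, 362 by a symbol in the description, 734 by an older symbol). Where a gene had several probes, the brightest was used. The text names the 3 genes in every comparison, the 5 probes nearest to each over the 6 ratios, up to 4 called members of each list by size of ratio, measured members of the Cyp2 cluster and electron transfer lists given for contrast, and Nr1i3. Cyp3a11, Akr1b7, Tnnc2 and the named hepatocyte markers fall outside this rule and were chosen after their values were seen. The 3 genes and all lists were chosen with earlier results of these data known, so list counts are descriptions and no independent evidence. Promoter windows were compared with Biopython 1.88. Alternatives covered the background correction, normalisation, dye effect, array weights, filters, deposited ratios and leaving out each array.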

Additional observations from a re-analysis of the deposited data

How the results depend on the processing

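With Agilent processed signals, which called 0 probes, the log2 ratios of CAR-KO over WT liver were -5.35 for Cyp2b9 (limma adjusted p = 0.185), -2.13 for Cyp2b10 (0.356) and -4.28 for Cyp2b13 (0.185). Those of WT tumour over CAR-KO liver were then 4.39 (adjusted p = 0.101), 2.42 (0.115) and 4.95 (0.0803), and that of Cyp2b10 in the PB comparison was -0.0097. The averaged deposited ratios gave -5.35 for Cyp2b9 and -4.28 for Cyp2b13 in CAR-KO over WT liver, and 0.65 and 0.24 in the PB comparison. Median centring in place of loess called 4133 probes (2370 higher, 1763 lower) in WT tumour over CAR-KO liver and 47 (all higher) in WT tumour over WT liver, where Cyp2b9 had 0.17 (adjusted p = 0.689). Each pair fitted alone called 87 probes (18 higher, 69 lower) in CAR-KO over WT liver, against 21 (2 higher, 19 lower) as reported, and 62 (53 higher, 9 lower) in WT tumour over CAR-KO liver, against 698 (524 higher, 174 lower). Array weights called 95 (20 higher, 75 lower), 1 in the PB comparison, and 236 (194 higher, 42 lower). Leaving out each array in turn gave -1.95 to -1.84 for Cyp2b10 in CAR-KO over WT liver. In the PB comparison it gave -0.11 to 0.68 for Cyp2b9, -0.15 to 0.16 for Cyp2b10 and -0.19 to 0.39 for Cyp2b13. The probes called were then 4 to 94 in CAR-KO over WT liver, 0 to 6 in the PB comparison, 285 to 4708 in WT tumour over CAR-KO liver and 0 to 2164 in WT tumour over WT liver. The 4708 (1799 higher, 2909 lower) and the 2164 came without array 2 of the tumour pair, and 194 were called in WT tumour over WT liver without array 1. The cause of these shifts was not tested. The deposited ratios gave no count of calls, and pairs fitted alone gave no indirect comparison. No paired analysis was possible because the labels give no replicate numbers that the groups share. With 2 arrays per comparison, a lone array left in a pair was assumed to vary like the others.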
